A study of Macaca mulatta with 10 samples.

Results

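The Centre Median and the Pulvinar of the rhesus monkey thalamus (Macaca mulatta) were compared directly, gene by gene, on the 4 arrays whose labels name these nuclei, out of 10 arrays in all. The 4 arrays were chosen by their labels alone, as Centre Median replicates 1 and 2 and Pulvinar replicates 1 and 2, and the difference was taken as Centre Median minus Pulvinar within each replicate number. The study asked which genes distinguish the nuclei of the dorsal thalamus, and hybridised RNA from tissue micro-punches to a human Affymetrix gene chip of short oligonucleotide probes. The other 6 arrays hold 2 each of Anterior, Medial and Ventral Thalamus. All tissue came from untreated adult monkeys, with no age, sex or animal identity given for any array, and the labels do not say whether a punch pools animals or whether replicates 1 and 2 are separate animals. The p-values below therefore measure only the spread between these arrays.

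The Centre Median is a large intralaminar nucleus in primates, which sends its main output to the striatum and receives input from the basal ganglia and brainstem. The Pulvinar is the large posterior association nucleus, which exchanges connections with visual and parietal cortex. Both are built mainly of glutamatergic projection neurons, with local GABAergic interneurons in primates, so a direct comparison sets 2 populations of thalamic projection neurons, their inputs and their glia side by side.

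The deposited values are RMA intensities, which are background-corrected, normalised probe set signals, and each was used as log2(intensity + 1), so a difference of 1 is a 2-fold difference. One probe set stood for each of 11963 genes. A gene was called where limma's moderated test, adjusted by the Benjamini-Hochberg method over all 11963 genes, gave an adjusted p under 0.05, with the replicate number as a block and the spread estimated over all 10 arrays. The median intensity was 99.5 and 97.2 on the Centre Median arrays and 100.6 and 95.4 on the Pulvinar arrays. For arrays the number of arrays, here 2 a nucleus, limits the precision. Fold differences near the lower end of the scale are compressed, and a human probe may bind a rhesus transcript weakly, so a low signal was not read as absence.

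The defining markers of thalamic projection neurons were high in both nuclei. SLC17A6, the vesicular glutamate transporter of thalamic projection neurons, read 10.47 and 10.81 in Centre Median and 10.59 and 10.86 in Pulvinar. TCF7L2, a transcription factor of thalamic excitatory neurons, read 12.06 and 12.74 in Centre Median and 12.40 and 12.999 in Pulvinar. The arrays of the nuclei overlapped for both markers and neither was called (adjusted p 1.00 in limma for each). XIST, transcribed from the inactive X chromosome, exceeded the Y-linked RPS4Y1 on all 4 arrays, with XIST at 8.96 and 9.86 in Centre Median and 9.60 and 10.29 in Pulvinar. RPS4Y1 read 7.65 and 7.15 in Centre Median and 7.22 and 7.23 in Pulvinar. On the replicate 1 arrays of the other 3 nuclei the order was the opposite, with XIST between 6.70 and 7.22 and RPS4Y1 between 8.16 and 8.94. On their replicate 2 arrays XIST was the higher, between 10.06 and 10.34, with RPS4Y1 between 6.96 and 7.12. The replicates of these 3 nuclei thus do not come from the same animal. Nor does replicate number 1 stand for a single animal across all nuclei, so the block cannot be read as pairing by animal. For Centre Median and Pulvinar the order of XIST and RPS4Y1 does not show whether their arrays share an animal. Each of the 11 genes called below was also called when the block split the arrays by this order as well. The 4 compared arrays have the same order, so the split left their differences unchanged and altered only the estimated spread. A part of the XIST levels in the differences between the nuclei was not tested.

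Arrays of the same replicate number were more alike than arrays of the same nucleus. Across genes, the Centre Median array correlated with the Pulvinar array of the same number at r = 0.988 (replicate 1) and 0.992 (replicate 2), whereas the replicates of one nucleus correlated at 0.961 in Centre Median and 0.949 in Pulvinar. The median absolute difference between the nuclei was 0.111 in replicate 1 and 0.120 in replicate 2, against 0.237 between the Centre Median replicates and 0.287 between the Pulvinar replicates. The within-number differences had the same sign for 49.8% of genes, and correlated at r = 0.163 across genes, a description only, since genes are not independent and share the arrays. For 5992 genes (50.1%) the signs were opposite, about as many as kept the direction. Differences above 0.5 in both replicate numbers were found for 27 genes (0.226%) and differences below -0.5 in both for 43 genes (0.359%), while 1 gene passed 0.5 in replicate 1 and -0.5 in replicate 2 (MZT2B, 0.54 and -0.63) and 1 did the reverse (TOX, -0.59 and 0.63). MZT2B and TOX were picked out after their values were seen.

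**Figure D1:**
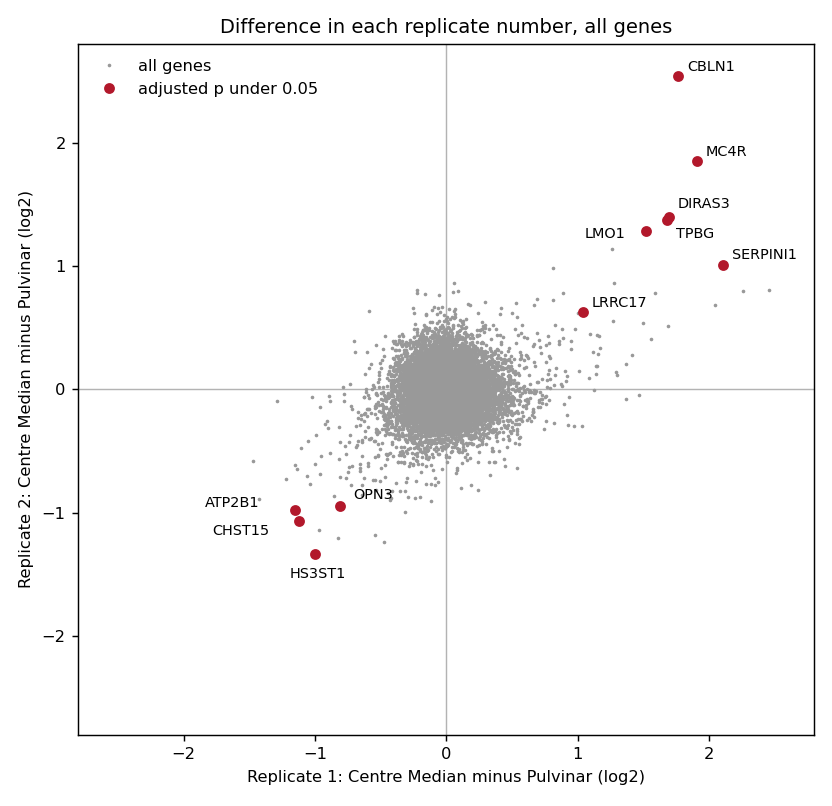
Each point is 1 of 11963 genes, with Centre Median minus Pulvinar (log2) in replicate 1 on the horizontal axis and in replicate 2 on the vertical axis, and the 11 called genes in red. The cloud of all genes is nearly round (r = 0.163), with 7 called genes at its upper right and 4 at its lower left. They were called from these same values. Genes without a call, such as ETV1 (2.46 and 0.80) and NCDN (-1.42 and -0.89), lie as far out as some of them.

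Of the 11963 genes, 11 were called, 0.092% of those tested. The 7 genes higher in Centre Median (0.0585%) were CBLN1, MC4R, SERPINI1, DIRAS3, TPBG, LMO1 and LRRC17, with fold differences between 1.78 and 4.44. The 4 lower in Centre Median (0.0334%) were HS3ST1, CHST15, ATP2B1 and OPN3, with Pulvinar levels between 1.84 and 2.25 times the Centre Median levels. At an unadjusted p under 0.05 there were 209 genes higher (1.75%) and 293 lower (2.45%), 502 in all (4.2%). Without the replicate block limma called 1 gene, MC4R, 0.00836% of those tested, with 80 genes (0.669%) at an unadjusted p under 0.05. The other 10 calls therefore rest on taking differences within a replicate number. The 4 arrays alone gave 66 calls with the block (29 higher, 37 lower, all 11 genes among them). Without it they gave 0 (67 genes at an unadjusted p under 0.05). The blocked fit of the 4 arrays leaves 1 residual degree of freedom per gene. Many genes named below were picked for their differences on these same 4 arrays, so a pass in that fit adds no support. Among the 66 were genes described below as not called with all 10 arrays, such as RYR1, CALB1, PDYN, NRXN3, NPTX2, CDH12, RPH3A, NPY, PLXNC1, RYR2 and OPRK1 (adjusted p between 0.00474 and 0.0350).

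MC4R, the melanocortin 4 receptor, is a Gs-coupled receptor for peptides cut from POMC and is blocked by AGRP. It had the smallest p of all genes. It read 8.25 and 8.17 in Centre Median and 6.34 and 6.32 in Pulvinar. Both Centre Median arrays lay far above both Pulvinar arrays, and the replicates of each nucleus differed by less than 0.1. The difference was 1.88 ± 0.119 (SE, n = 2 arrays a nucleus), a 3.68-fold higher Centre Median level (limma adjusted p = 1.30e-05 with the block, 0.0161 without). MC4R was called in each of the 10 fits that left out 1 array. The 6 arrays of the other nuclei ranged from 6.35 to 6.54, so the Pulvinar level sat at their lower edge while the Centre Median level stood apart.

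The other measured melanocortin genes gave no call. MC1R, MC2R, MC3R and MC5R, the other melanocortin receptors, had differences of 0.08, -0.01, 0.07 and -0.02 (adjusted p 1.00 for each). POMC, the precursor of the agonists, differed by 0.10 and AGRP, the antagonist, by -0.23 (adjusted p 1.00 for both). Among 30 measured neuropeptide receptors MC4R was the only call, the median difference was 0.04 against -0.0001 for all genes, and 8 were higher and 4 lower in both replicate numbers (all genes: 23.1% higher in both, 26.7% lower in both). OPRK1, the kappa opioid receptor, was the receptor farthest below 0. It read 6.998 and 7.57 in Centre Median and 8.10 and 8.05 in Pulvinar, without overlap (-0.79, adjusted p 0.885).

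CBLN1 encodes a secreted protein of the C1q family that joins presynaptic neurexins to postsynaptic delta glutamate receptors. It showed the largest difference of the called genes. It read 8.94 and 8.67 in Centre Median and 7.18 and 6.13 in Pulvinar. The Pulvinar arrays were farther from each other than the Centre Median arrays, yet both lay below them. The difference was 2.15 ± 0.258, or 4.44-fold (adjusted p = 0.00414 with the block, 1.00 without). The call was lost when Centre Median replicate 2 was left out (1.68, adjusted p 0.0695) or when the first Pulvinar replicate was (2.17, adjusted p 0.0816). The other 6 arrays ranged from 6.19 to 8.86, so 1 array outside Centre Median, of Medial Thalamus, reached the Centre Median range. The nucleus means were 7.93 in Medial, 6.78 in Ventral and 6.59 in Anterior Thalamus.

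CBLN1 was the only call among 23 measured cerebellins, pentraxins and synapse organisers, a list with a median difference of -0.08, in which 6 genes were higher and 10 lower in both replicate numbers. NRXN3, a neurexin, read 8.02 and 8.20 in Centre Median and 8.66 and 8.97 in Pulvinar. Its Centre Median arrays were both below its Pulvinar arrays, opposite to CBLN1 (-0.71 ± 0.203, adjusted p 0.557). NPTX2, a pentraxin that clusters AMPA receptors, read 7.46 and 7.28 in Centre Median and 8.18 and 7.90 in Pulvinar (-0.67 ± 0.150, adjusted p 0.224). ADGRL2, a latrophilin adhesion receptor, lay the other way, with 7.25 and 7.16 in Centre Median and 6.08 and 6.83 in Pulvinar (0.75 ± 0.170, adjusted p 0.230). The delta receptor genes and other cerebellins of the list were not in the annotation used here and were not analysed here.

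DIRAS3, TPBG and LMO1 formed a group of calls with low Pulvinar signals and tight replicates. DIRAS3, an imprinted Ras-family GTPase that restrains growth, read 7.03 and 6.68 in Centre Median and 5.34 and 5.28 in Pulvinar. TPBG, a cell-surface glycoprotein known to shift Wnt responses, read 7.76 and 7.55 in Centre Median and 6.09 and 6.18 in Pulvinar. LMO1, a LIM-domain transcriptional co-regulator without DNA-binding activity of its own, read 7.17 and 6.75 in Centre Median and 5.65 and 5.47 in Pulvinar. For each of these genes both Centre Median arrays lay at least 1 log2 unit above both Pulvinar arrays. The differences were 1.54 ± 0.153 for DIRAS3 (2.92-fold, adjusted p = 0.000841), 1.53 ± 0.144 for TPBG (2.88-fold, 0.000670) and 1.40 ± 0.161 for LMO1 (2.64-fold, 0.00327). Without the block none of these was called, with adjusted p of 0.123, 0.115 and 0.313. DIRAS3 and TPBG were called in all 10 fits that left out 1 array, and LMO1 in all but the fit without Centre Median replicate 1 (1.19, adjusted p 0.132).

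SERPINI1 encodes neuroserpin, a neuronal inhibitor of tissue plasminogen activator. It read 11.14 and 10.63 in Centre Median and 9.03 and 9.62 in Pulvinar. The groups did not overlap, and the difference was 2.11 in replicate 1 and 1.01 in replicate 2. The mean difference was 1.56 ± 0.222, or 2.95-fold (adjusted p = 0.0180 with the block, 1.00 without). Its call was lost without Centre Median replicate 1 (1.27, adjusted p 0.630) or Pulvinar replicate 1 (1.17, adjusted p 0.276), and when all probe sets of a gene were averaged (1.56, adjusted p 0.0663).

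LRRC17, a secreted leucine-rich repeat protein, had the smallest difference among the calls. It read 7.03 and 6.09 in Centre Median and 5.999 and 5.46 in Pulvinar. The lower Centre Median array was only just above the higher Pulvinar array, but within each replicate number Centre Median was higher. The difference was 0.83 ± 0.127, or 1.78-fold (adjusted p = 0.0284 with the block, 1.00 without). The call was lost in 6 of the 10 fits that left out 1 array, those without either Centre Median array, either Pulvinar array or either Anterior Thalamus array (adjusted p between 0.0524 and 0.730).

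**Figure D2:**
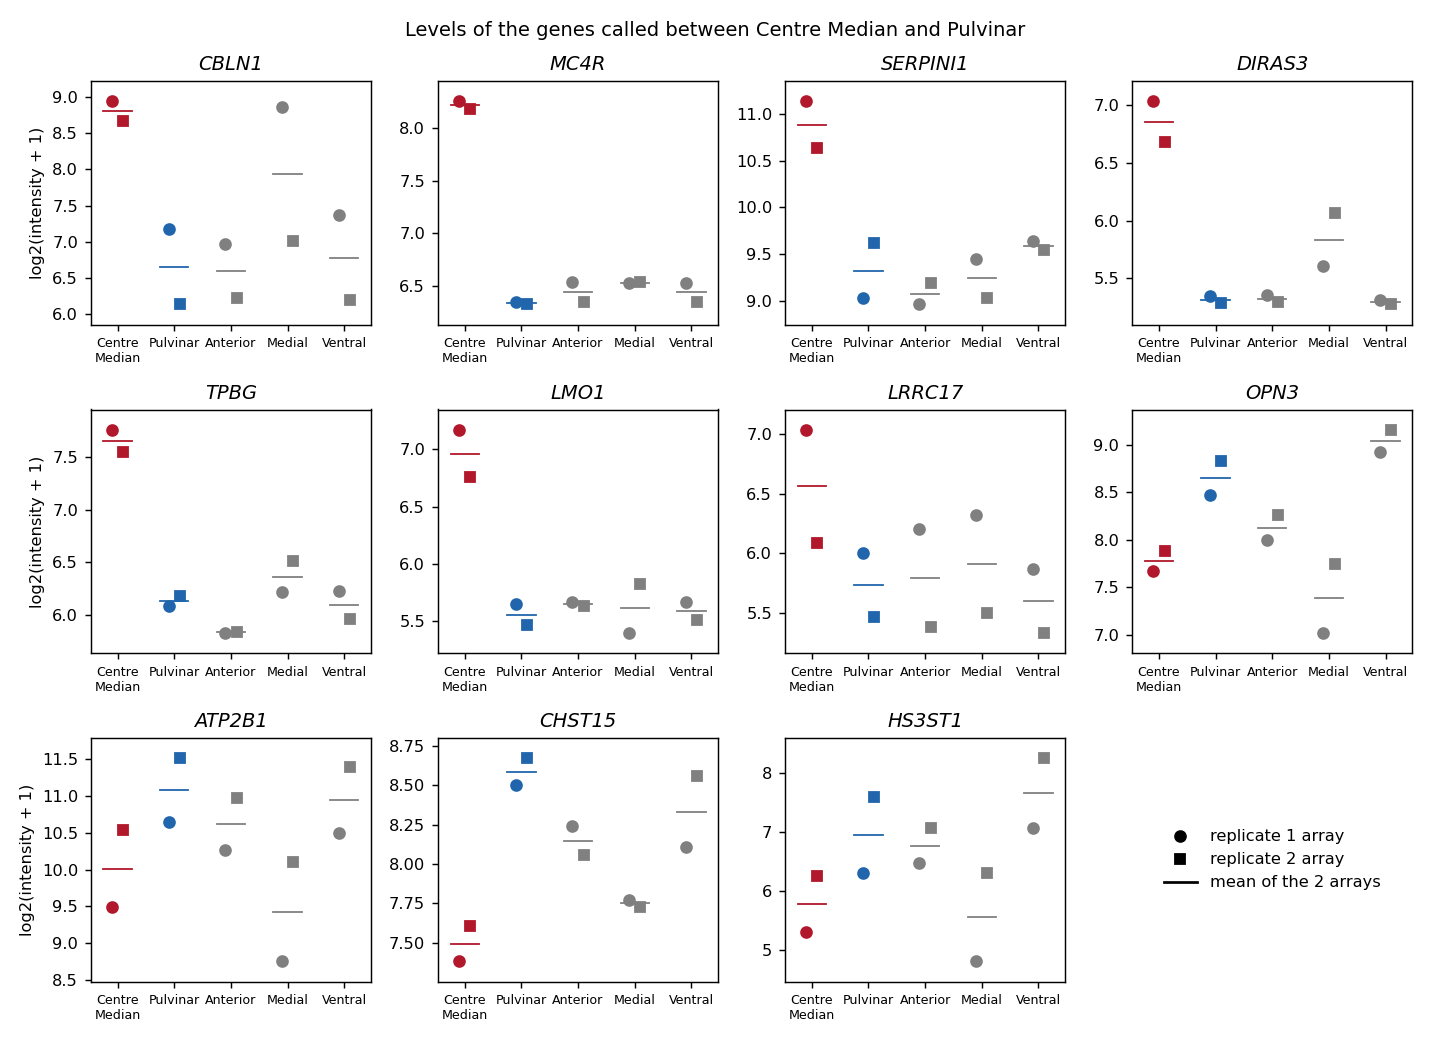
Each panel plots 1 called gene, as log2(intensity + 1) on all 10 arrays, with circles for replicate 1, squares for replicate 2, a line at the mean of each nucleus, Centre Median in red, Pulvinar in blue and the other 3 nuclei in grey. In all 11 panels the red and blue points do not overlap, and for MC4R, SERPINI1, DIRAS3, TPBG and LMO1 both red points lie above all 8 other arrays. The 11 genes were called for the difference between red and blue. Of all 11963 genes, 6.29% had both Centre Median arrays above both Pulvinar arrays and 7.72% had them below. The share of all genes that lay beyond all 8 other arrays was not counted.

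Both sulfotransferases among the calls were lower in Centre Median. HS3ST1, which adds a 3-O-sulfate to heparan sulfate, read 5.31 and 6.27 in Centre Median and 6.31 and 7.60 in Pulvinar. CHST15, which makes the disulfated chondroitin sulfate E unit, read 7.38 and 7.61 in Centre Median and 8.50 and 8.67 in Pulvinar. The replicates of HS3ST1 differed by about as much as the nuclei did and its groups were nearly touching, whereas the CHST15 groups were clearly apart. The difference was -1.17 ± 0.179 for HS3ST1 (adjusted p = 0.0284) and -1.09 ± 0.153 for CHST15 (adjusted p = 0.0174). Neither was called without the block (adjusted p 1.00 for both). HS3ST1 and CHST15 each lost the call when any 1 of the 4 Centre Median and Pulvinar arrays was left out, with adjusted p between 0.209 and 0.491 for HS3ST1 and between 0.0856 and 0.512 for CHST15. The other probe sets of HS3ST1 gave -0.22 and 0.11, and averaging its probe sets gave -0.43 (adjusted p 0.580), so this gene's call rests on 1 probe set of 3.

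ATP2B1 encodes a plasma membrane pump that exports calcium. It read 9.49 and 10.53 in Centre Median and 10.64 and 11.51 in Pulvinar. Centre Median was lower in both replicate numbers, and the higher Centre Median array came close to the lower Pulvinar array. The difference was -1.06 ± 0.170 (adjusted p = 0.0388 with the block, 1.00 without), and its other probe sets gave -0.87 and -0.97. OPN3, a non-visual opsin found in brain, read 7.66 and 7.88 in Centre Median and 8.47 and 8.83 in Pulvinar. Its groups did not overlap, and the difference was -0.88 ± 0.145 (adjusted p = 0.0494 with the block, 1.00 without). Both calls sat near the threshold: ATP2B1 and OPN3 were each called in only 2 of the 10 fits that left out 1 array, those without either Medial Thalamus array, and the other fits gave adjusted p between 0.0515 and 0.730 for ATP2B1 and between 0.0606 and 0.512 for OPN3. Quantile normalisation of the arrays also ended the calls of HS3ST1 (0.0509), ATP2B1 (0.0715), OPN3 (0.155) and LRRC17 (0.0509). A fit with no variance trend ended those of LRRC17, OPN3 and HS3ST1 (0.0569 each). Testing every probe set ended those of LRRC17 and HS3ST1 (0.0559 each), ATP2B1 (0.0667) and OPN3 (0.0746). Keeping genes at or above the median level ended those of OPN3 (0.0615) and ATP2B1 (0.0608), as did the mean of all probe sets (0.0879 each).

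The other 3 nuclei place these differences. Relative to the mean of Anterior, Medial and Ventral Thalamus, 18 genes (0.15%) were called in Centre Median and 0 (0%) in Pulvinar with the same limma fit, with 782 genes (6.54%) and 510 genes (4.26%) at an unadjusted p under 0.05. These comparisons share the 6 arrays of the other nuclei, so the values are given side by side only. Each also uses the same Centre Median or Pulvinar arrays as the direct comparison that picked the genes. A second call of a picked gene therefore adds no independent support. All 7 genes called higher in Centre Median than in Pulvinar were also called higher in Centre Median than in the other 3 nuclei, whose replicate 1 arrays had the opposite order of XIST and RPS4Y1. With the block also split by that order 6 of the 7 were called (LRRC17 gave an adjusted p of 0.0628). Without the block 2 were called (MC4R and TPBG), and without Centre Median replicate 1 there were 4 (CBLN1, MC4R, DIRAS3 and TPBG). For CBLN1 the difference from the other nuclei was 1.70 in Centre Median and -0.45 in Pulvinar. For MC4R it was 1.74 in Centre Median and -0.14 in Pulvinar, and for SERPINI1 1.58 in Centre Median and 0.02 in Pulvinar. For DIRAS3, TPBG, LMO1 and LRRC17 the Centre Median difference lay between 0.80 and 1.56 and the Pulvinar difference between -0.17 and 0.04. For the higher genes, the Pulvinar thus lay within 0.5 of the other nuclei while the Centre Median stood off by between 0.80 and 1.74.

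The lower genes were placed differently, with the Centre Median below and the Pulvinar above the mean of the other 3 nuclei. ATP2B1 differed from the other 3 nuclei by -0.32 in Centre Median and 0.74 in Pulvinar. OPN3 differed by -0.41 in Centre Median and 0.47 in Pulvinar, CHST15 by -0.58 in Centre Median and 0.51 in Pulvinar, and HS3ST1 by -0.88 in Centre Median and 0.29 in Pulvinar. Of these 8 values only that of HS3ST1 in Centre Median was called (adjusted p = 0.0401 in limma), and the adjusted p of the 4 Pulvinar values lay between 0.407 and 0.999. Medial Thalamus had a lower nucleus mean than Centre Median for ATP2B1, OPN3 and HS3ST1. Ventral Thalamus had a higher nucleus mean than Pulvinar for OPN3 (8.65 in Pulvinar, 9.04 in Ventral Thalamus) and HS3ST1 (6.96 in Pulvinar, 7.67 in Ventral Thalamus). CHST15 was the only lower gene with both Centre Median arrays below all 8 other arrays, and the share of all genes placed so was not counted.

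**Figure D3:**
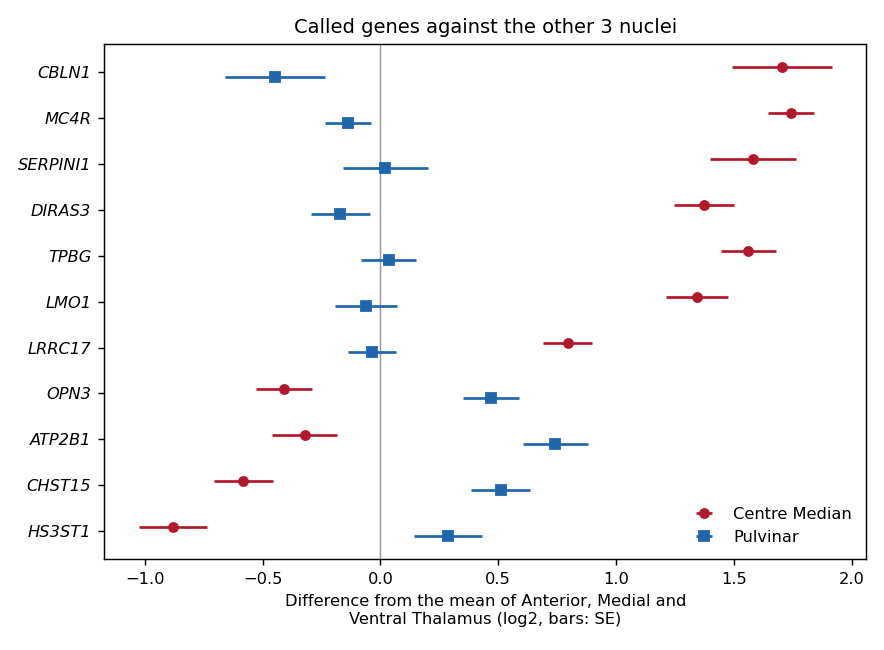
For each of the 11 called genes the horizontal axis gives the log2 difference from the mean of Anterior, Medial and Ventral Thalamus, with red circles for Centre Median, blue squares for Pulvinar and bars for the SE. The 7 upper genes have Centre Median at 0.80 or above and Pulvinar between -0.45 and 0.04, and the 4 lower genes have Centre Median below 0 and Pulvinar above 0.

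Several further genes had large differences in both replicate numbers without a call. ETV1, an ETS-family transcription factor, read 10.06 and 9.78 in Centre Median and 7.60 and 8.98 in Pulvinar. Its groups did not overlap, but the difference was 2.46 in replicate 1 and 0.80 in replicate 2. With 1.63 ± 0.272 and an adjusted p of 0.0501, it was the gene just outside the threshold, as OPN3 at 0.0494 was the gene just inside it. Its 4 other probe sets gave 0.89, 1.22, 1.06 and 0.13. ETV1 crossed the threshold without Centre Median replicate 2 (adjusted p 0.0399), Pulvinar replicate 2 (0.00247) or either Medial Thalamus array (0.0478 and 0.0496). CACNA2D3, an auxiliary subunit of voltage-gated calcium channels, read 9.98 and 9.09 in Centre Median and 7.73 and 8.30 in Pulvinar (1.53 ± 0.302, adjusted p 0.133). CRYM, a thyroid hormone-binding protein, read 11.11 and 10.14 in Centre Median and 9.52 and 9.36 in Pulvinar (1.18 ± 0.229, adjusted p 0.109, and 0.0171 without Centre Median replicate 2). With only the 4 arrays and the block, ETV1 (adjusted p 0.0113), CACNA2D3 (0.00844) and CRYM (0.0137) passed the test. These genes were named for their differences on the same 4 arrays, so this adds no support. ETV1 (0.0377) and CRYM (0.0368) also passed when the block was split by the order of XIST and RPS4Y1. ETV1, CACNA2D3 and CRYM each had a difference in replicate 1 more than 1.5 times that in replicate 2. The called SERPINI1 and LRRC17 did as well, so this does not set the uncalled genes apart.

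Other genes on the Centre Median side differed by similar amounts in the replicate numbers. TRHDE, a peptidase that degrades thyrotropin-releasing hormone, read 6.70 and 6.45 in Centre Median and 5.44 and 5.31 in Pulvinar (1.20 ± 0.268, adjusted p 0.224). DPYSL3, a collapsin response mediator, read 8.11 and 8.03 in Centre Median and 7.22 and 7.25 in Pulvinar (0.84 ± 0.157, adjusted p 0.102). CDH9, a classical cadherin, read 5.95 and 6.14 in Centre Median and 5.13 and 5.42 in Pulvinar (0.77 ± 0.196, adjusted p 0.371). The arrays of these genes did not overlap between the nuclei, as was true of 752 genes (6.29%) with Centre Median above and 923 genes (7.72%) with Centre Median below. SLC24A3, a potassium-dependent sodium/calcium exchanger, gave 1.07 ± 0.249 (adjusted p 0.265) and NCALD, a neuronal calcium sensor, 0.71 ± 0.148 (adjusted p 0.187). TRHDE passed the threshold without either Anterior Thalamus array (adjusted p 0.0364 and 0.0367), CDH9 without either Ventral Thalamus array (0.0219 and 0.0263) and DPYSL3 without Medial Thalamus replicate 1 (0.0482). HTR2C, the serotonin 2C receptor, read 6.06 and 5.59 in Centre Median and 5.25 and 4.61 in Pulvinar (0.89 ± 0.576, adjusted p 1.00). The other HTR2C probe set, with a weaker signal, gave 0.08. All 6 of these genes passed the limma test with only the 4 arrays and the block. The adjusted p was 8.77e-05 for TRHDE, 0.000658 for HTR2C, 0.00474 for CDH9 and 0.00522 for DPYSL3. It was 0.0153 for NCALD and 0.0271 for SLC24A3 (0.0281 with the split block). All 6 were named for their differences on the same 4 arrays, so these passes add no support.

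On the Pulvinar side, NCDN, the cytoplasmic neuronal protein neurochondrin, read 9.50 and 8.56 in Centre Median and 10.93 and 9.45 in Pulvinar (-1.16 ± 0.322, adjusted p 0.519). CRH, the precursor of corticotropin-releasing hormone, read 9.61 and 9.71 in Centre Median and 10.58 and 10.85 in Pulvinar (-1.05 ± 0.274, adjusted p 0.408). EPHA3, an ephrin receptor of axon guidance, read 6.14 and 6.89 in Centre Median and 6.96 and 8.09 in Pulvinar (-1.02 ± 0.271, adjusted p 0.441). The CRH groups were clearly apart, the EPHA3 groups only just, and the NCDN groups overlapped. Other probe sets gave smaller differences, -0.36 for NCDN, -0.91 for CRH, and -0.13 and -0.06 for EPHA3. PCP4, a small calmodulin-binding protein, read 10.31 and 10.69 in Centre Median and 11.53 and 11.41 in Pulvinar, a clear gap (-0.97 ± 0.183, adjusted p 0.102). PITPNM1, a phosphatidylinositol transfer protein, gave -0.88 ± 0.216 (adjusted p 0.332), and CHRDL1, a secreted BMP antagonist, -0.90 ± 0.386 (adjusted p 1.00). ZIC1, a zinc-finger transcription factor, gave -0.74 ± 0.190 (adjusted p 0.378), CITED2, a transcriptional co-activator, -0.76 ± 0.144 (0.102), and SHISAL1 -0.75 ± 0.173 (0.252). None of these genes passed the test with all 10 arrays. With only the 4 arrays and the block, NCDN (adjusted p 0.00522), CRH (0.0121), EPHA3 (0.00207), PITPNM1 (0.00549), CHRDL1 (0.00474), CITED2 and SHISAL1 (0.0153 each) passed. They were named for their differences on the same 4 arrays, so these passes add no support. With 1 array left out, NCDN did without either Anterior Thalamus array (adjusted p 0.0247 and 0.0242), and CRH without Medial Thalamus replicate 1 (0.0482).

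**Figure D4:**
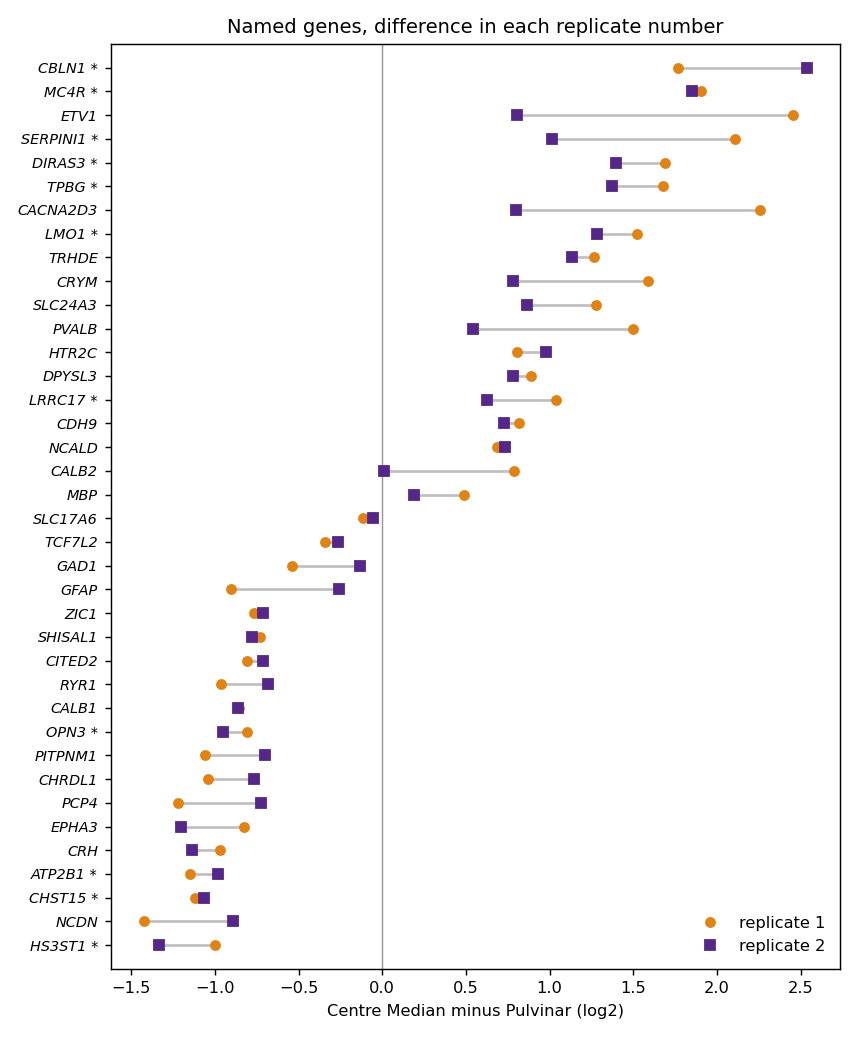
For each of 38 genes the horizontal axis gives Centre Median minus Pulvinar (log2) in replicate 1 (orange circle) and replicate 2 (purple square), ordered by the mean, with a star for a call at adjusted p under 0.05. The points of MC4R, DIRAS3, TPBG and LMO1 lie close together, whereas those of ETV1 (2.46 and 0.80) and CACNA2D3 (2.25 and 0.80) lie far apart and carry no star.

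Of 12 measured genes listed for intralaminar and midline nuclei, 6 were higher and 3 lower in Centre Median in both replicate numbers. The median difference was 0.27, against -0.0001 for all genes. CBLN1 and MC4R were the 2 calls. The list was chosen with reported Centre Median differences of these data known, so its lean gives no independent support. GRM2, a presynaptic metabotropic glutamate receptor, read 8.01 and 7.38 in Centre Median and 7.43 and 6.87 in Pulvinar (0.55 ± 0.153, adjusted p 0.523). GRM5, a postsynaptic metabotropic receptor on the same list, read 8.76 and 9.21 in Centre Median and 9.18 and 10.09 in Pulvinar (-0.65 ± 0.188, adjusted p 0.559). The classical calcium-binding markers gave no call. CALB1, calbindin, read 5.71 and 8.69 in Centre Median and 6.56 and 9.55 in Pulvinar. Its difference was -0.86 in both replicate numbers, but the replicates of each nucleus lay about 3 log2 units apart (-0.86 ± 0.503, adjusted p 1.00). CALB2, calretinin, read 9.39 and 9.25 in Centre Median and 8.60 and 9.24 in Pulvinar (0.40 ± 0.201, adjusted p 1.00). PVALB, parvalbumin, read 11.32 and 10.38 in Centre Median and 9.82 and 9.84 in Pulvinar (1.02 ± 0.489, adjusted p 1.00, and -0.049 without Centre Median replicate 1).

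Among 18 measured calcium-binding proteins, 4 were higher and 11 lower in Centre Median in both replicate numbers, with a median of -0.14 and 0 calls by limma (unadjusted p under 0.05 for 1 higher and 3 lower genes). Of all genes, 1.75% were higher and 2.45% lower at that unadjusted p, the shares to set beside each such count below. VSNL1, the calcium sensor visinin-like 1, read 11.73 and 11.77 in Centre Median and 12.54 and 12.20 in Pulvinar (-0.62 ± 0.186, adjusted p 0.638). The 24 genes of calcium channels, release channels and pumps had a median of -0.12, with 5 higher and 10 lower in both numbers and ATP2B1 as the only call. The median of this list was -0.20 in replicate 1 and 0.05 in replicate 2, so the lean came from replicate 1. The ryanodine receptors, which release calcium from internal stores, lay on both sides of 0. RYR2 read 7.41 and 7.07 in Centre Median and 5.85 and 6.67 in Pulvinar (0.98 ± 0.336, adjusted p 0.918). RYR1 gave -0.82 ± 0.249 (adjusted p 0.638) and RYR3 -0.44 ± 0.133 (adjusted p 0.654), so RYR2 lay on the opposite side from RYR1 and RYR3.

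Of 29 potassium and HCN channel genes, 3 were higher and 14 lower in Centre Median in both replicate numbers, with a median of -0.09 and 0 calls (unadjusted p under 0.05 for 1 higher and 3 lower genes). KCND3, the A-type channel Kv4.3, read 7.84 and 8.49 in Centre Median and 8.83 and 8.86 in Pulvinar (-0.68 ± 0.152, adjusted p 0.224). KCNJ6, the G protein-gated channel GIRK2, gave -0.58 ± 0.152 (adjusted p 0.408). Of 28 genes of synaptic vesicle release, 2 were higher and 13 lower in both numbers, with a median of -0.08 and 0 calls (unadjusted p under 0.05 for 0 higher and 3 lower genes). RPH3A, rabphilin, which binds Rab3 on vesicles, was lower on both Centre Median arrays than on both Pulvinar arrays (-0.89 ± 0.194, adjusted p 0.199). SV2B, a synaptic vesicle glycoprotein, read 8.40 and 8.59 in Centre Median and 9.08 and 9.01 in Pulvinar (-0.55 ± 0.148, adjusted p 0.462). In both lists more genes lay below than above 0 in both numbers, and no member was called.

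The receptors for glutamate and GABA were mixed. Of 12 metabotropic glutamate receptor and signalling genes, 5 were higher and 6 lower in both numbers, with a median of -0.08. GRM3, a receptor of neurons and astrocytes, read 9.06 and 9.14 in Centre Median and 7.69 and 8.93 in Pulvinar (0.79 ± 0.222, adjusted p 0.525, and 0.0417 without Centre Median replicate 2). Of 12 GABA receptor and anchoring genes, 2 were higher and 5 lower in both numbers, with a median of -0.02. GABBR2, a subunit of the GABA-B receptor, read 11.14 and 11.01 in Centre Median and 11.67 and 11.82 in Pulvinar (-0.68 ± 0.171, adjusted p 0.367). Of 14 AMPA, NMDA and kainate receptor genes, 2 were higher and 4 lower in both numbers, with a median of 0.02. None of these 3 lists held a call. An unadjusted p under 0.05 was found for 3 higher and 7 lower genes, against 1.75% and 2.45% of all genes.

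Among 23 neuropeptide precursors, 8 were higher and 11 lower in both numbers, with a median of -0.07 and 0 calls (unadjusted p under 0.05 for 2 higher and 2 lower genes). The median was -0.08 in replicate 1 and 0.04 in replicate 2. NPY read 8.23 and 7.09 in Centre Median and 7.23 and 6.47 in Pulvinar, and PENK, the enkephalin precursor, 7.17 and 7.28 in Centre Median and 6.56 and 6.86 in Pulvinar. PDYN, the dynorphin precursor, read 6.62 and 6.52 in Centre Median and 7.17 and 7.25 in Pulvinar. The values of both opioid precursors were separate between the nuclei and lay in opposite directions (PENK 0.51 ± 0.152, adjusted p 0.613, and PDYN -0.64 ± 0.153, adjusted p 0.305). PDYN thus lay on the same side as OPRK1, the receptor for its peptides, and neither passed the test with all 10 arrays.

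Of 39 axon guidance genes, 14 were higher and 7 lower in both numbers, with a median of 0.02 and 0 calls (unadjusted p under 0.05 for 3 higher and 2 lower genes). Besides DPYSL3 and EPHA3, described above, the ephrin receptor EPHB6 gave 0.40 ± 0.133 (adjusted p 0.856) and PLXNC1, a semaphorin receptor, -0.86 ± 0.304 (adjusted p 0.973). Of 25 cadherins and adhesion genes, 12 were higher and 5 lower in both numbers, with a median of 0.14 and 0 calls (unadjusted p under 0.05 for 4 higher and 2 lower genes). The median of this list was 0.13 in replicate 1 and -0.009 in replicate 2, so the lean came from replicate 1. CDH12 gave 0.73 ± 0.404 and NCAM2 0.43 ± 0.126, against -0.36 ± 0.157 for CDH8 and -0.45 ± 0.150 for OPCML (adjusted p between 0.592 and 1.00). Of 29 Wnt pathway genes, 9 were higher and 10 lower in both numbers, with a median of 0.02 and TPBG as the only call. WNT5A, a ligand of the pathway, read 7.48 and 9.21 in Centre Median and 8.53 and 9.63 in Pulvinar (-0.74 ± 0.231, adjusted p 0.748). TLE1, a co-repressor of its target genes, read 7.85 and 7.30 in Centre Median and 6.84 and 7.15 in Pulvinar (0.58 ± 0.167, adjusted p 0.559). Of 20 thalamic transcription factors, 5 were higher and 9 lower in both numbers, with a median of -0.01 and LMO1 as the only call. RORA, an orphan nuclear receptor, gave -0.57 ± 0.181 (adjusted p 0.790).

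The remaining neuronal lists held no call. Of 34 serotonin, acetylcholine and monoamine receptor genes, 10 were higher and 9 lower in both numbers (median -0.01). Of 19 immediate early genes, which follow neuronal activity, 6 were higher and 6 lower (median -0.01), and of 14 GABAergic neuron genes, 6 were higher and 4 lower (median -0.01). Of 13 genes of sodium channels and the axon initial segment, 4 were higher and 2 lower (median 0.08), with SCN3A at 7.55 and 7.33 in Centre Median and 6.87 and 6.87 in Pulvinar (0.57 ± 0.200, adjusted p 0.954). Of 21 neurofilament and axonal cytoskeleton genes, 1 was higher and 9 lower (median -0.05), and of 15 relay neuron genes, 3 were higher and 4 lower (median -0.02). These medians lay within 0.1 of that of all genes.

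The oligodendrocyte and astrocyte lists had medians on opposite sides of 0, without a call. Of 23 oligodendrocyte and myelin genes, 12 were higher and 1 lower in Centre Median in both numbers, with a median of 0.07, 0 calls and 4 genes higher at an unadjusted p under 0.05. ENPP2, autotaxin, which makes lysophosphatidic acid, read 11.41 and 10.85 in Centre Median and 9.73 and 10.34 in Pulvinar (1.10 ± 0.300, adjusted p 0.479). MBP, a major myelin protein, read 12.92 and 13.31 in Centre Median and 12.43 and 13.12 in Pulvinar (0.34 ± 0.207, adjusted p 1.00). The other MBP probe sets gave 0.38, 0.0009 and -0.16. The median of the oligodendrocyte list was 0.19 in replicate 1 and 0.05 in replicate 2, so most of the lean came from replicate 1. Of 21 astrocyte genes, 3 were higher and 11 lower in both numbers, with a median of -0.13, 0 calls and 2 genes lower at an unadjusted p under 0.05. The astrocyte median was -0.19 in replicate 1 and -0.05 in replicate 2. GFAP, the astrocyte intermediate filament, read 10.35 and 11.44 in Centre Median and 11.25 and 11.70 in Pulvinar (-0.58 ± 0.263, adjusted p 1.00). The other GFAP probe set, with a weaker signal, gave 0.02. Of 24 microglia and antigen presentation genes, 3 were higher and 8 lower in both numbers, with a median of -0.04, 0 calls and 0 genes at an unadjusted p under 0.05. Of all genes, 23.1% were higher and 26.7% lower in both numbers.

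Markers that define other cell types are given beside the calls, since a micro-punch holds many cell types. In such bulk tissue fewer cells of a type and less RNA per cell cannot be told apart. The summed intensity of 4 measured oligodendrocyte markers of 5 was 11019 and 13966 in Centre Median and 7391 and 12478 in Pulvinar. That of all 5 astrocyte markers was 6692 and 10549 in Centre Median and 6883 and 11356 in Pulvinar. The oligodendrocyte sum was higher in Centre Median and the astrocyte sum slightly lower in both replicate numbers, with the larger replicate 2 sums in both nuclei. Such a sum is weighted to the probe sets with the strongest signals. Of the 4 oligodendrocyte markers 3 were higher in both numbers, and of the 5 astrocyte markers 3 were lower in both. The astrocyte markers AQP4 (0.27) and SLC1A2 (0.23) had mean differences above 0. For 2 GABAergic markers of 3 the sum was 1365 and 1555 in Centre Median and 2033 and 1679 in Pulvinar. GAD1, which makes GABA, read 9.73 and 10.07 in Centre Median and 10.27 and 10.20 in Pulvinar (-0.34 ± 0.209, adjusted p 1.00), and its difference was 0.0066 without Pulvinar replicate 1. The other GAD1 probe sets, with weaker signals, gave 0.0067 and 0.12. For 3 choroid plexus markers of 4 the sum was 892 and 1735 in Centre Median and 938 and 1628 in Pulvinar. For microglia (4 markers of 5) the sums were 803 and 792 in Centre Median and 768 and 870 in Pulvinar, and for blood vessels (4 of 4) 601 and 602 in Centre Median and 547 and 622 in Pulvinar. None of the measured markers was called, and their part in the calls was not tested.

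The measures of RNA quality differed with the replicate number. The 3' minus 5' probe set difference of actin, which grows as RNA shortens, was 0.46 and 1.15 in Centre Median and 0.34 and 1.27 in Pulvinar. That of GAPDH was 0.34 and 0.62 in Centre Median and 0.53 and 0.78 in Pulvinar. In both nuclei replicate 2 had the larger value. Centre Median had the lower GAPDH value in both replicate numbers, whereas for actin the order of the nuclei differed between the numbers. The part of RNA quality in the calls was not tested. Genes of protein synthesis and respiration had opposite signs in the replicate numbers. Of 40 cytosolic ribosomal protein genes, 39 were higher in Centre Median in replicate 1 (median 0.33) and 39 lower in replicate 2 (median -0.19), so that 38 had opposite signs (50.1% of all genes did). Of 54 genes of the respiratory chain and ATP synthase, 41 were higher in replicate 1 (median 0.14) and 41 lower in replicate 2 (median -0.12), with 38 of opposite sign. With 1 array per nucleus and number these lists show opposite differences, not a difference between the nuclei, and neither held a call (0 genes of either list at an unadjusted p under 0.05).

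**Figure D5:**
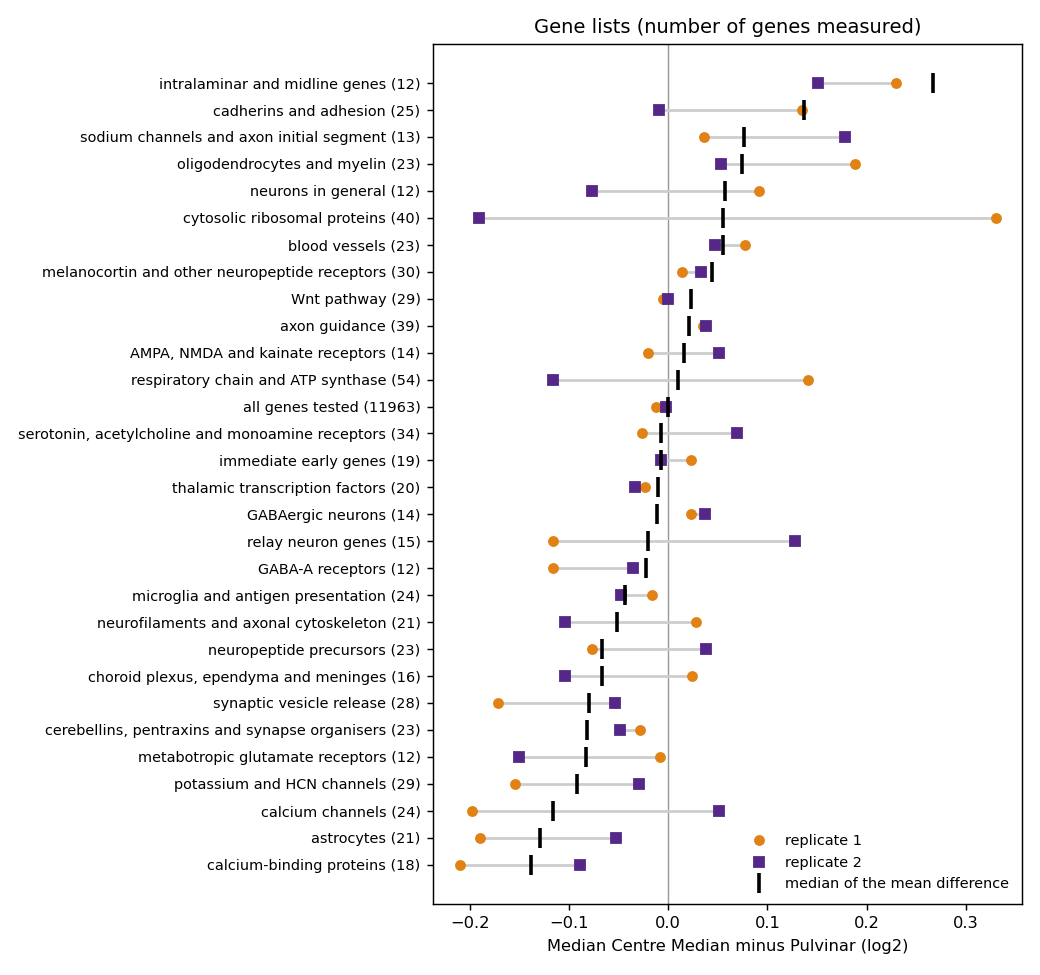
For each of 29 gene lists and for all genes, the horizontal axis gives the median Centre Median minus Pulvinar (log2) of its measured genes in replicate 1 (orange circle) and replicate 2 (purple square), with a black bar at the median of the mean difference and the number of measured genes in brackets. The intralaminar list, which holds MC4R and CBLN1, has the highest black bar (0.27). It was chosen with reported Centre Median differences of these data known. The ribosomal list spans 0.33 in replicate 1 to -0.19 in replicate 2.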

How the data were processed

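The members and gene lists were chosen with earlier results of these data known, including reported differences of the Centre Median. RNA was extracted and labelled by the manufacturer's protocol, per the labels' protocols. The authors deposited a normalized intensity per probe set, made with RMA (version not stated) per the submitters' processing notes. Whether the arrays were normalised together is not given in the sources used here. The lowest intensity lay between 11.97 and 12.30 on the replicate 1 arrays and between 9.49 and 9.55 on the replicate 2 arrays. What lies behind this split by replicate number was not tested. No detection calls were used.

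Of 22283 probe sets, 68 controls, 1043 with several gene symbols and 2107 without one were left out. The remaining 19065 gave 11963 genes, and for the 4310 genes with several probe sets the one with the highest mean over 10 arrays was taken. No filter on low values was applied, and the pseudocount was 1. A linear model with a coefficient per nucleus and the replicate number as a block was fitted with limma 3.58.1 in R 4.3.3 (empirical Bayes with a variance trend), with 4 residual and 8.66 prior degrees of freedom. The script was tested on simulated data.

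The block was checked: the replicate 2 minus replicate 1 differences of the nuclei correlated between 0.758 and 0.831 over the 10 pairs of nuclei, and the numbering comes from the sample titles. The median residual SD was 0.126 with the block and 0.220 without it.

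The named genes were all calls, the 15 genes in each direction with the largest smaller within-number difference, 9 general markers and up to 3 leading members of a list in the direction of its median. Further list members, such as OPRK1, SCN3A, RYR2, RYR3, ADGRL2, GRM3, GRM5, NPY, PENK, CDH8, OPCML, PLXNC1, TLE1 and WNT5A, were named after their values were seen. Of 738 list genes, 628 were measured.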

Additional observations from a re-analysis of the deposited data

How the results depend on the processing

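Against 11 genes called (7 higher, 4 lower in Centre Median), limma without the replicate block called 1 (1 higher, 0 lower, with 80 at an unadjusted p under 0.05). The 4 arrays alone gave 66 with the replicate block (29 higher, 37 lower, all 11 genes among them) and 0 in either direction without it (67 unadjusted). Quantile normalisation, the mean of all probe sets and testing every probe set each gave 7 calls, of which 1 was lower. Genes at or above the median level gave 3 (2 higher, 1 lower). That filter left out MC4R, DIRAS3, TPBG, LMO1, LRRC17 and HS3ST1, whose mean signals lay below the median level, so they were not tested there. A fit with no variance trend gave 8 calls (6 higher, 2 lower). Pseudocounts of 0 and 16 and a block split by XIST minus RPS4Y1 gave 11 to 14 calls. Leaving out 1 array gave between 4 and 14 calls (4 to 11 higher, 0 to 5 lower), with 4 when the first Centre Median replicate was missing and 5 when the first Pulvinar replicate was. Of the 38 named genes, 12 were called between Centre Median and the other 3 nuclei, against 2 without the replicate block, 6 among genes at or above the median level, 7 with the split block and 4 to 15 when 1 array was left out. For Pulvinar the count was 0, and 0 to 1 when 1 array was left out (1 without Medial Thalamus replicate 1). The sign turned for PVALB without Centre Median replicate 1 (-0.049, range -0.049 to 2.09 over the arrays left out) and for GAD1 without Pulvinar replicate 1 (0.0066, range -0.68 to 0.0066). The cause of these changes was not tested, except that the median filter tests fewer genes and leaving out an array leaves fewer samples. The alternatives for the other 3 nuclei were chosen after seeing the data. Signal near background and 2 arrays a nucleus limit the precision.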
